A study of Mus musculus with 11 samples.

Results

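This report describes 34 genes of the type I interferon response in mesenchymal cells sorted from mouse bone marrow after doxorubicin. The genes were taken by symbol from a list of interferon-induced genes, by a rule that uses no measured value, although the list was drawn up with earlier results of these data known. All 34 were found among the 24718 genes of the count table, and all 34 were among the 17838 genes with enough counts to be tested. Bulk RNA-seq was made from tdTomato-positive cells of female Lepr-Cre;LSL-tdTomato+/- mice, in which Cre expressed from the leptin receptor locus switches on a red reporter in perivascular marrow stroma. The PBS group (n = 4) had received buffer intravenously, labelled as 4 times. The DOX1X group (n = 3) had received a single intravenous dose of doxorubicin at 10 mg/kg, and the DOX4X group (n = 4) had received 4 intravenous doses of 5 mg/kg at intervals of 1 week. DOX4X mice were 8 to 10 weeks old when treated and DOX1X mice are described as young adults, with no age given for PBS mice. Marrow was collected 8 weeks after treatment, and all mice carried the same reporter genotype. DOX1X therefore differs from the other groups in dose and in the number of injections together. Each library is labelled as a separate biological replicate, and is called a mouse below.

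Type I interferons bind the Ifnar1 and Ifnar2 receptor chains, and the kinases Jak1 and Tyk2 then phosphorylate Stat2. A complex that contains Stat2 and Irf9 binds interferon-stimulated response elements in promoters and switches on a set of antiviral genes, several of which encode parts of the pathway itself. The genes are best known for defence against viruses, and DNA damage by agents such as doxorubicin, a topoisomerase II poison, can also lead to interferon signalling through nucleic acid sensors. Marrow stromal cells express the receptor and have a low level of many of these genes without infection.

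Promoter sequences were matched by symbol for 24 of the 34 genes in a RefSeq table (GRCm38.p6). The motif GAAANNGAAA, a short form of the interferon-stimulated response element, was searched on both strands in the 250 bases before the start of each gene. It was found in 9 of these 24 promoters (37.5%) and in 458 of the 14262 genes of the table (3.21%). The motif TTCNNNGAA, bound by Stat dimers, was found in 6 of 24 (25%), against 1049 genes (7.36%). The windows of 6 of these genes, each followed library by library below, are shown because they carry the motif that the complex with Stat2 and Irf9 is known to bind. They are written 5′ to 3′ on the strand of the gene, with every match of GAAANNGAAA or of its reverse complement TTTCNNTTTC in capitals, and overlapping matches run together.
Isg15, chr4:156200860-156200911, minus strand: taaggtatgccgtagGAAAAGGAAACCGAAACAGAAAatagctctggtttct
Oas1a, chr5:120907526-120907560, minus strand: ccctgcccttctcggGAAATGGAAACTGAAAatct
Bst2, chr8:71537572-71537617, minus strand: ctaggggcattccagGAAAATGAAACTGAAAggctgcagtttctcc
Ifit1, chr19:34640770-34640828, plus strand: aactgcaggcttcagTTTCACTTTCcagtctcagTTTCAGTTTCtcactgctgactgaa
Ifit3, chr19:34583358-34583431, plus strand: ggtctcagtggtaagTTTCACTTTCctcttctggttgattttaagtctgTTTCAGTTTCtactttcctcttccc
Ifit3b, chr19:34607754-34607827, plus strand: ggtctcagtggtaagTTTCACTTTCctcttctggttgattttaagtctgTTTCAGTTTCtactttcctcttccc
The Isg15 window holds 3 overlapping matches, the others hold 2 each, and the Ifit3 and Ifit3b windows are the same 74 bases at 2 places on chromosome 19. A match is a description of these letters and was not measured as a bound site here.

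The libraries held 29540422 to 42784036 counts each. The columns name 2 flow cells: PBS 1 to 4 and DOX1X 1 and 2 were on the first, and DOX1X 3 and DOX4X 1 to 4 on the second, so that no PBS mouse shared a flow cell with a DOX4X mouse. The label of the sorted cells held, with Cxcl12, the chemokine that marks these stromal cells, at 46059 to 59804 CPM (counts scaled to the size of the library) and Lepr at 3939 to 7661 CPM in every library. PBS 4 carries a title beginning with DOX but a PBS treatment label and a control library name, and was kept as PBS. In bulk RNA, fewer cells with a transcript and less of it per cell cannot be told apart.

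None of the 34 genes passed the test in any comparison, and single mice stood apart within groups, DOX4X 4 most often. With edgeR's quasi-likelihood test and Benjamini-Hochberg adjustment over 17838 genes, 0 of 34 passed an adjusted p of 0.05 in DOX4X against PBS, where 0% of all genes passed as higher and 0.146% as lower. DESeq2 and limma-voom also called 0 of these genes in each comparison, where 1 gene had no adjusted p from DESeq2 in DOX4X against PBS. Over all genes DESeq2 called 4.02% in DOX4X against PBS, 0.312% in DOX1X against PBS and 0.152% in DOX4X against DOX1X, and limma-voom called 0.314%, 0.00561% and 0.00561%. At an unadjusted p under 0.05, 2 of the 34 were higher in DOX4X by edgeR (Trim25 and Isg20), beside 6% of all genes higher and 7.85% lower. That count was 7 without DOX4X 3 (6.71% of all genes higher), 4 without PBS 2 (6.7%), 1 without PBS 3 (4.88%) and 4 by DESeq2 (6.62%). With a blood-cell marker term in the fit it was 5 (5.61%). With a flow cell term it was 1 (5.89%), and 1 gene was lower. In DOX4X the log2 fold change over PBS was above 0 for 27 of 34 genes, with a median of 0.21, beside 52.2% of all genes and a median of 0.01. Without the library DOX4X 4 that median was -0.12, with 9 of 34 above 0. In DOX1X against PBS 0 of 34 passed, beside 0.00561% of all genes as higher, and 0 of 34 reached an unadjusted p under 0.05, beside 3.42% of all genes higher and 3.74% lower. There 23 of 34 lay above 0 with a median of 0.09, beside 51.2% of all genes, and without DOX1X 3 the median was -0.14 with 10 of 34 above 0. Without PBS 3 it was -0.01. DOX4X against DOX1X gave 0 of 34 passed and 0 of 34 at an unadjusted p under 0.05, with 0.00561% of all genes called lower and 2.23% higher and 2.13% lower at that unadjusted p. The values of 25 of 34 were above 0, with a median of 0.13, beside 49.7% of all genes. Without DOX4X 4 that median was -0.20 with 4 of 34 above 0, and without DOX1X 1 it was -0.04. In no comparison did any of the 34 genes have all libraries of 1 group above all of the other, beside 3.17% of all genes for DOX4X above PBS and 4.68% for DOX4X below PBS. The like shares of all genes were 3.18% and 3.82% for DOX1X above and below PBS, and 3.19% and 2.79% for DOX4X above and below DOX1X.

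**Figure D1:**
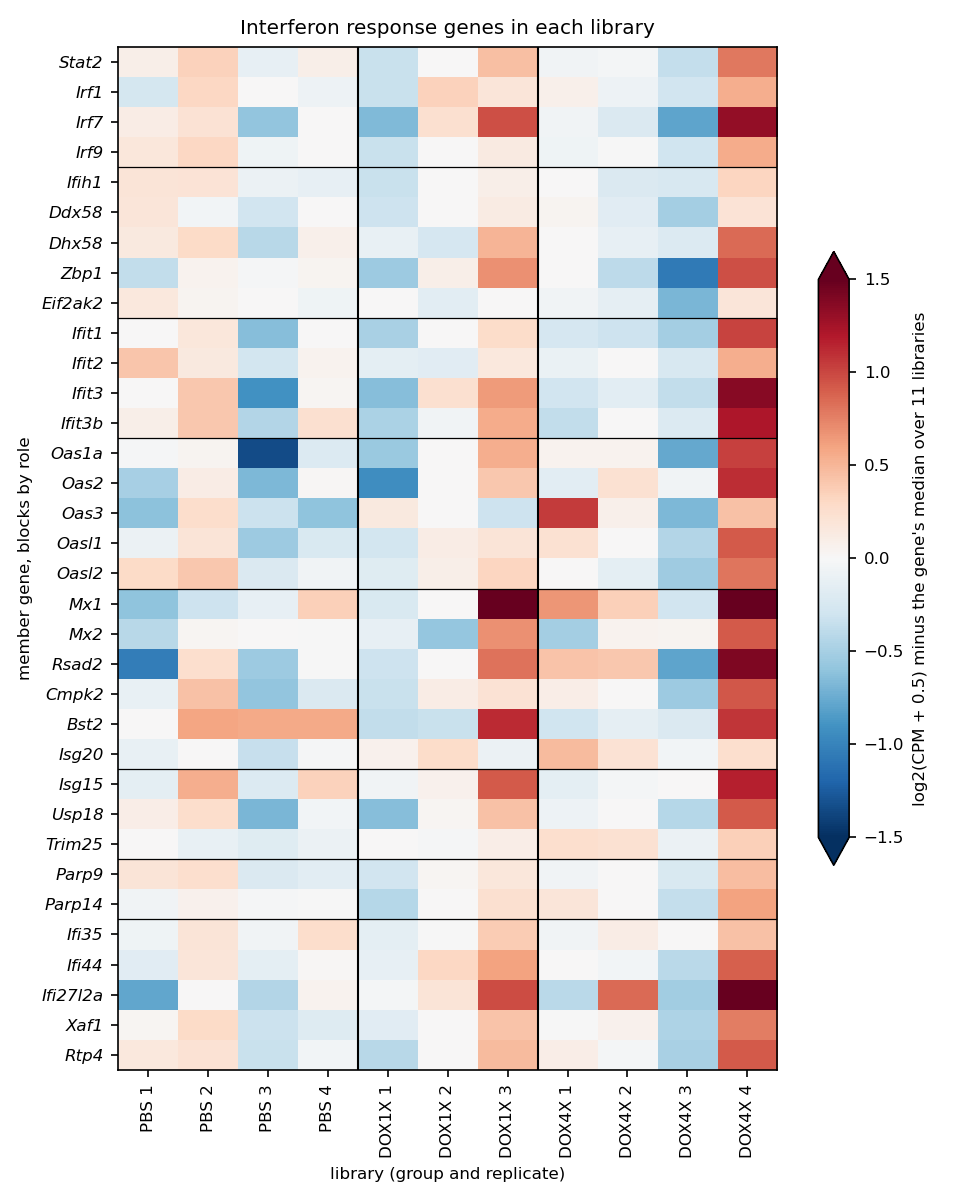
Heat map of the 34 genes (rows, ordered by role) in the 11 libraries (columns, by group). Colour gives the log2 CPM relative to the median of the gene over all libraries. The column of DOX4X 4 is high for nearly every gene and DOX1X 3 is high for most, while PBS 3, DOX4X 3 and DOX1X 1 are low.

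Of the transcription factors of the response, Stat2, Irf9 and Irf1 were at similar mean levels in the 3 groups. Irf7 had higher means in both treated groups, with a wide spread. Stat2, the subunit that carries the activation domain of the complex, stood at 108, 129.6, 93.5 and 108 CPM in PBS 1 to 4, at 80.2, 102 and 139 CPM in DOX1X 1 to 3, and at 97.7, 99.5, 79.5 and 175 CPM in DOX4X 1 to 4. The group means were 109.8 ± 14.9, 107 ± 29.6 and 113 ± 42.6 CPM (SD). All groups overlapped, with a log2 fold change of 0.04 (SE 0.23, 95% interval -0.47 to 0.55) in DOX4X against PBS. Irf9, the subunit that binds DNA, was at 101, 111, 85.3 and 89.5 CPM in PBS, 70.8, 90.1 and 98.2 CPM in DOX1X, and 85.8, 89.1, 72.5 and 132 CPM in DOX4X. Its DOX4X difference from PBS was -0.03 (SE 0.17) on the log2 scale. Irf7, which drives further interferon production and is itself strongly induced, varied more. It was at 97.0, 104, 59.6 and 89.96 CPM in PBS, at 56.7, 106 and 176 CPM in DOX1X, and at 86.4, 77.5, 51.6 and 225 CPM in DOX4X. In both treated groups 1 library stood high and 1 low, and 3 of the 4 DOX4X mice were at or under the PBS mean of 87.7 ± 19.6 CPM. The means of Irf7 were 113 ± 60.1 CPM in DOX1X and 110 ± 78.2 CPM in DOX4X. The log2 fold change of Irf7 was 0.33 (SE 0.43, interval -0.62 to 1.28) in DOX4X against PBS and -0.29 without DOX4X 4. Irf1, which responds to both interferon types, had group means of 167 ± 28.6 CPM in PBS, 178 ± 41.2 CPM in DOX1X and 178 ± 45.8 CPM in DOX4X.

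Among the sensors of foreign RNA and DNA, Ddx58, which encodes RIG-I, was at 99.3, 85.0, 71.3 and 87.4 CPM in PBS, 70.4, 88.0 and 95.1 CPM in DOX1X, and 89.7, 77.4, 61.1 and 101 CPM in DOX4X. Eif2ak2, the kinase PKR that halts translation on binding double-stranded RNA, was at 31.7, 29.2, 28.3 and 27.0 CPM in PBS, 28.5, 25.3 and 28.4 CPM in DOX1X, and 27.3, 25.8, 17.4 and 32.1 CPM in DOX4X. These were the steadier genes of the response, and their DOX4X differences from PBS were -0.06 (SE 0.15) and -0.18 (SE 0.15) on the log2 scale. Ifih1, a cytoplasmic sensor of long double-stranded RNA, ranged from 42.7 to 67.8 CPM over all 11 libraries. Dhx58, a relative of both that lacks their signalling domain, ranged from 11.5 CPM in PBS 3 to 28.4 CPM in DOX4X 4. Zbp1, which binds left-handed nucleic acid and can start cell death, had the widest range of the 5, from 20.3 CPM in DOX4X 3 to 84.6 CPM in DOX4X 4, both mice of the same group.

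The Ifit genes, whose proteins bind viral RNA ends, differed between single mice, least so Ifit2. Ifit1 was at 76.8, 86.8, 49.1 and 77.1 CPM in PBS, at 54.6, 76.9 and 93.4 CPM in DOX1X, and at 64.5, 61.9, 54.0 and 155 CPM in DOX4X. DOX4X 4 was the highest of all libraries, and the other 3 DOX4X mice lay within the PBS range. The log2 fold change of Ifit1 in DOX4X against PBS was 0.21 (SE 0.32, interval -0.48 to 0.91), and -0.27 without DOX4X 4. Ifit3 stood at 50.4, 66.7, 26.7 and 51.4 CPM in PBS, 32.1, 59.5 and 78.5 CPM in DOX1X, and 41.4, 45.2, 38.8 and 131 CPM in DOX4X. Its neighbour Ifit3b was at 12.4, 15.6, 8.38 and 13.7 CPM in PBS, 8.20, 11.1 and 17.3 CPM in DOX1X, and 8.89, 11.6, 9.99 and 27.6 CPM in DOX4X. For both genes PBS 3 was among the lowest libraries and DOX4X 4 the highest, and the differences from PBS were 0.39 (SE 0.42) and 0.22 (SE 0.36) with it, but -0.22 and -0.30 without it. Of the 50-base stretches of Ifit3 transcripts 51.2% also occur in Ifit3b, so the split of reads between these genes is uncertain. Ifit2 had group means of 30.2 ± 5.96 CPM in PBS, 27.2 ± 3.73 CPM in DOX1X and 29.7 ± 7.84 CPM in DOX4X.

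**Figure D2:**
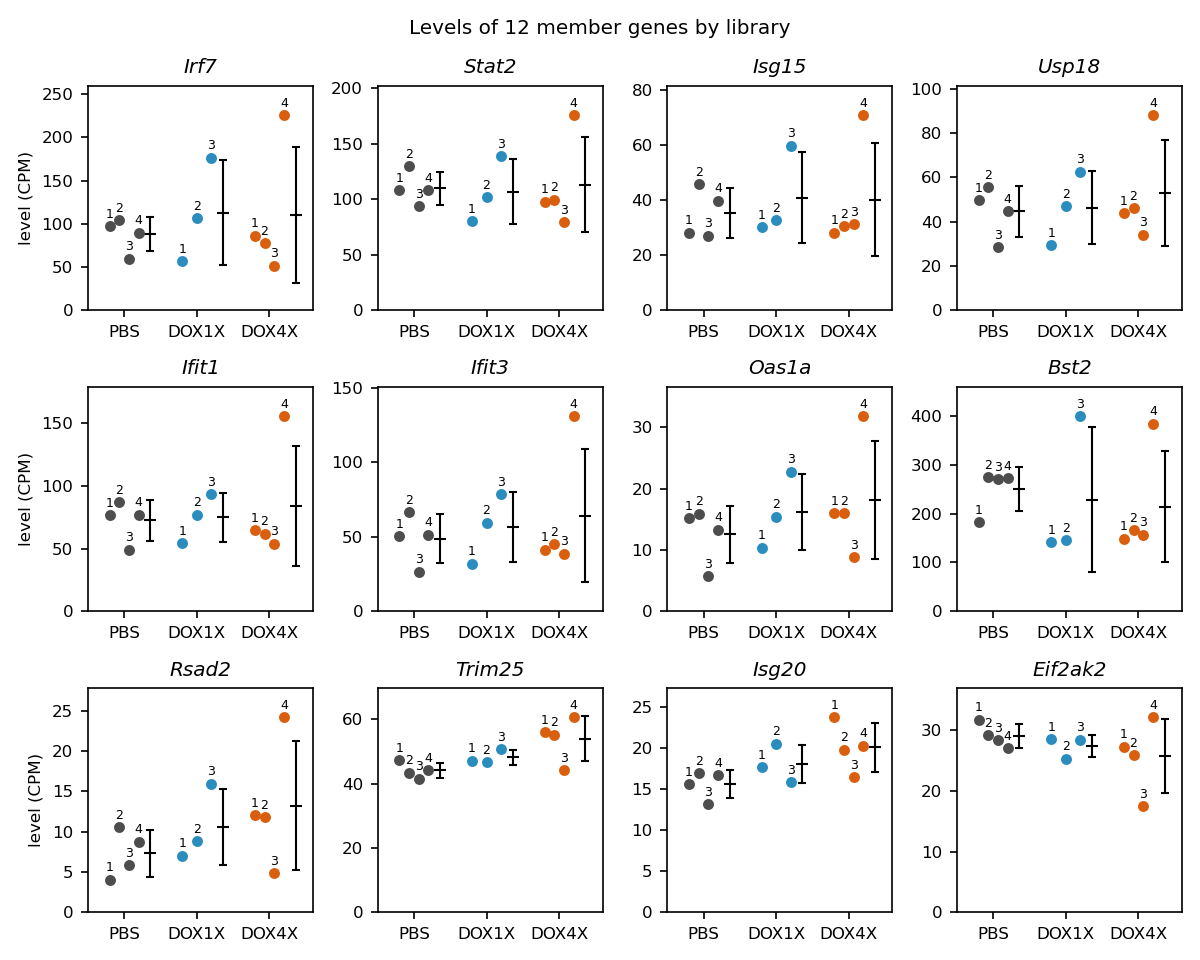
CPM of selected genes of the response in each of the 11 libraries (points, by group, with the group mean as a bar and the SD as its error line, and replicate numbers beside the points). Ifit1 reached 155 CPM in DOX4X 4 while the other 3 DOX4X mice were at 54.0 to 64.5 CPM, inside the PBS range.

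Oas proteins make the short oligoadenylates that activate RNase L, an enzyme that cuts RNA in infected cells. Oas1a was at 15.2, 15.9, 5.76 and 13.3 CPM in PBS, 10.4, 15.4 and 22.8 CPM in DOX1X, and 16.0, 16.0, 8.87 and 31.8 CPM in DOX4X, with a DOX4X difference of 0.53 (SE 0.40) from PBS. PBS 3 was the lowest of the 11 and DOX4X 4 the highest. Of the Oas1a stretches 57.6% occur in Oas1g, so the value may include reads of that copy. Oas2 and Oas3 were near the lower end of detection. Oas2 had 7, 16, 3 and 14 raw counts in PBS, 0, 15 and 29 in DOX1X, and 13, 21, 14 and 57 in DOX4X, so its log2 fold change of 1.22 (SE 0.86) over PBS rests on few reads. Oas3 was at 0.457, 1.27, 0.680 and 0.467 CPM in PBS, 1.13, 0.970 and 0.683 CPM in DOX1X, and 2.53, 1.05, 0.421 and 1.498 CPM in DOX4X. It was highest in DOX4X 1 and lowest in DOX4X 3. Oasl1, which restrains translation of Irf7, ranged from 7.99 to 22.9 CPM, and Oasl2 from 91.9 to 232 CPM, both with the top value in DOX4X 4.

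Of the remaining antiviral effectors, Bst2 (tetherin, which holds budding virus at the cell surface) had the highest level per length of the 34, at 256 CPM per kb of exon over all libraries. Isg15 came next at 51.1 CPM per kb, and Oas2 was lowest at 0.111 CPM per kb. Bst2 was at 183, 275, 271 and 272 CPM in PBS, 142, 145 and 399 CPM in DOX1X, and 149, 166, 157 and 384 CPM in DOX4X. DOX1X 3 and DOX4X 4 stood at or above 384 CPM, and the other 5 treated mice were below every PBS mouse. The log2 fold change of Bst2 was -0.23 (SE 0.37, interval -1.04 to 0.59) in DOX4X. Rsad2 (viperin, which makes a chain-terminating nucleotide) was at 4.06, 10.6, 5.89 and 8.77 CPM in PBS, 7.02, 8.82 and 15.9 CPM in DOX1X, and 12.03, 11.8, 4.87 and 24.2 CPM in DOX4X. In 3 of the 4 DOX4X mice it was above every PBS mouse, and the log2 fold change was 0.86 (SE 0.44, interval -0.12 to 1.83, edgeR adjusted p = 0.42). Cmpk2, its neighbour and a mitochondrial nucleotide kinase, ranged from 20.7 to 60.4 CPM. Mx1, a dynamin-like GTPase that blocks incoming virus, was low, at 0.507, 0.734, 0.906 and 1.47 CPM in PBS, 0.807, 1.03 and 4.39 CPM in DOX1X, and 1.93, 1.46, 0.752 and 4.03 CPM in DOX4X. DOX1X 3 and DOX4X 4 were at 4.03 CPM or more and the other 5 treated mice at 0.752 to 1.93 CPM. Its differences from PBS were 1.20 (SE 0.66) in DOX1X and 1.18 (SE 0.62) in DOX4X on the log2 scale, and that of DOX1X was 0.029 without DOX1X 3. Mx2 ranged from 2.49 to 7.90 CPM. Isg20, an RNA exonuclease, was at 15.6, 16.9, 13.1 and 16.7 CPM in PBS, 17.7, 20.5 and 15.8 CPM in DOX1X, and 23.7, 19.8, 16.4 and 20.2 CPM in DOX4X. It was above every PBS mouse in 3 of 4 DOX4X mice, with a log2 fold change of 0.36 (SE 0.13, edgeR unadjusted p = 0.0185, adjusted p = 0.26).

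Isg15 is a ubiquitin-like protein that is joined to others during the response. It was at 28.3, 45.9, 27.2 and 39.8 CPM in PBS, 30.3, 32.7 and 59.9 CPM in DOX1X, and 28.2, 30.6, 31.3 and 70.9 CPM in DOX4X. The groups overlapped, and its DOX4X difference was 0.19 (SE 0.32, interval -0.51 to 0.89) with DOX4X 4 and -0.23 without it. Usp18, which removes Isg15 and damps the receptor, was at 49.7, 55.5, 28.5 and 44.9 CPM in PBS, 29.5, 47.0 and 62.6 CPM in DOX1X, and 43.97, 46.2, 34.2 and 88.0 CPM in DOX4X, a DOX4X difference of 0.25 (SE 0.31). Trim25, a ubiquitin ligase that acts on RIG-I, was at 47.3, 43.4, 41.5 and 44.1 CPM in PBS, 47.0, 46.6 and 50.6 CPM in DOX1X, and 55.9, 55.2, 44.1 and 60.6 CPM in DOX4X. It had the smallest p of the 34 genes in DOX4X against PBS, where 3 of 4 DOX4X mice lay above every PBS mouse and DOX4X 3 lay within the PBS range. The log2 fold change of Trim25 was 0.29 (SE 0.09, interval 0.09 to 0.49, edgeR unadjusted p = 0.0090, adjusted p = 0.21), which does not pass. Against DOX1X it was 0.16 (SE 0.10).

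Parp9 and Parp14 are interferon-induced members of the ADP-ribosyltransferase family. They had means of 68.1 ± 11.3 and 68.7 ± 2.39 CPM in PBS and 70.0 ± 15.3 and 76.3 ± 21.4 CPM in DOX4X. Ifi27l2a, which encodes a small hydrophobic interferon-induced protein, was at 1.57, 3.07, 2.14 and 3.20 CPM in PBS, 2.98, 3.58 and 6.52 CPM in DOX1X, and 2.20, 5.91, 1.99 and 10.0 CPM in DOX4X. Of the DOX4X mice 2 were above every PBS mouse and 2 within the PBS range, at a log2 fold change of 1.01 (SE 0.50, interval -0.07 to 2.10, edgeR adjusted p = 0.40). Rtp4 ranged from 67.8 to 180.3 CPM, Ifi44 from 36.7 to 90.9 CPM, Xaf1 from 18.9 to 44.96 CPM and Ifi35 from 35.6 to 53.5 CPM. For each of these 4 genes DOX4X 4 was the highest library. Parts of the Rtp4, Ifi35 and Parp9 transcripts overlap other annotated genes (11.6%, 10.4% and 7.71% of their 50-base stretches), and the kit does not mark strand.

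**Figure D3:**
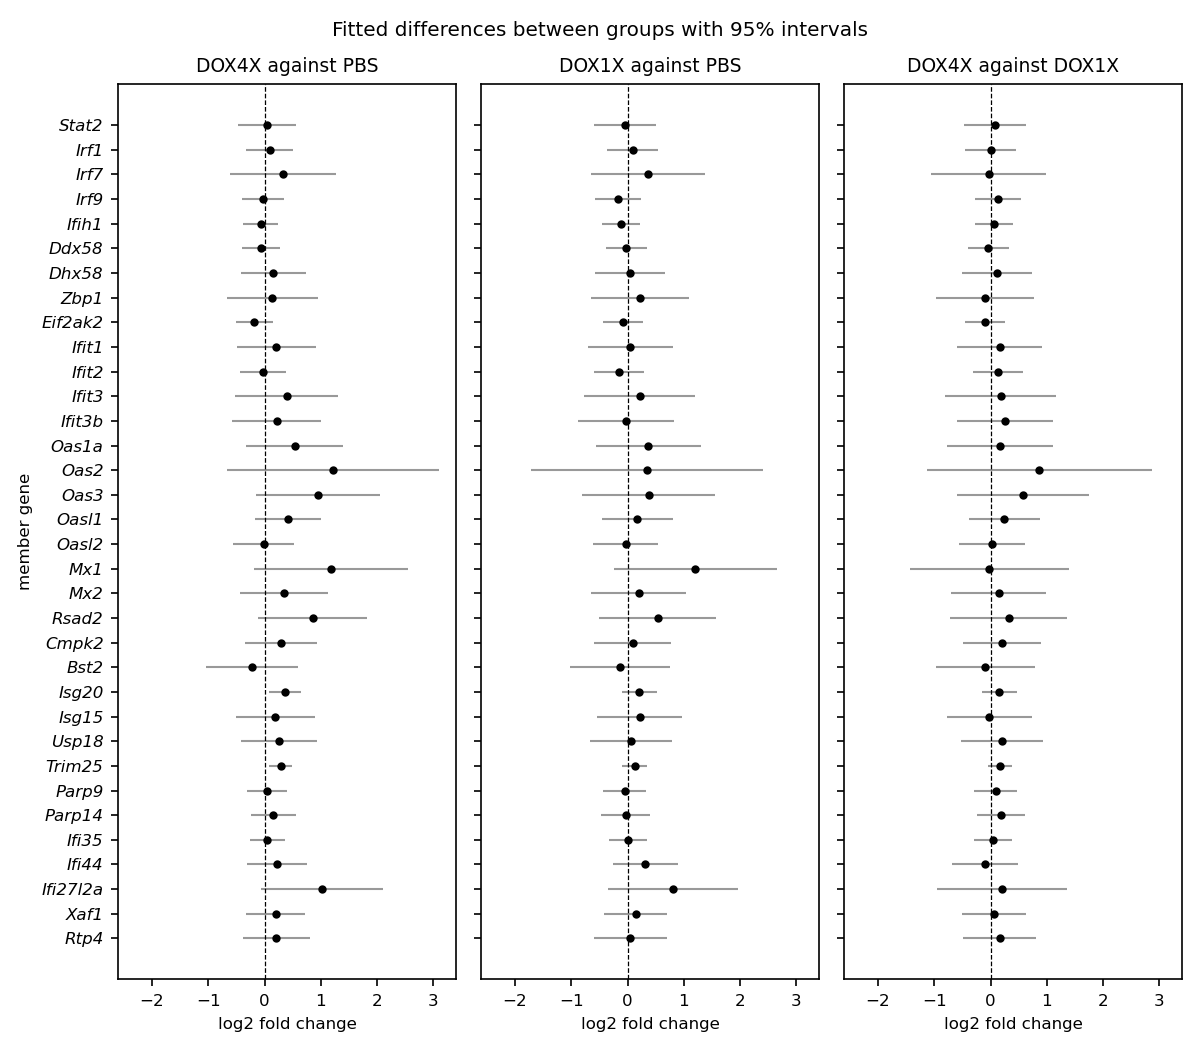
Log2 fold change of each of the 34 genes in the 3 comparisons (points, with the 95% interval from edgeR as a line). Nearly all intervals cross 0, and in DOX4X against PBS those of Trim25 (0.09 to 0.49) and Isg20 (0.07 to 0.65) do not.

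The genes moved together from mouse to mouse. DOX4X 4 was the highest of the 11 libraries for 30 of the 34 genes (88.2%), beside 5.76% of all tested genes, and above the gene's median over the libraries for 34 of 34, beside 45.8%. The 4 others were Oas3 and Isg20, highest in DOX4X 1, and Mx1 and Bst2, highest in DOX1X 3. DOX1X 3 was first or second for 21 genes and above the median for 32. Low libraries came from all 3 groups. PBS 3 was lowest for 11 genes, DOX4X 3 for 10 and DOX1X 1 for 9, beside 7.96%, 11.4% and 6.59% of all genes. The summed level of the 34 genes was 1563 to 2092 CPM in PBS (mean 1806 ± 218 SD), 1369.8, 1780.4 and 2408.6 CPM in DOX1X, and 1692.6, 1637, 1323.5 and 3030 CPM in DOX4X 1 to 4. The sum of DOX4X 4 was above that of every other library, and those of DOX4X 1 to 3 were below the PBS mean.

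**Figure D4:**
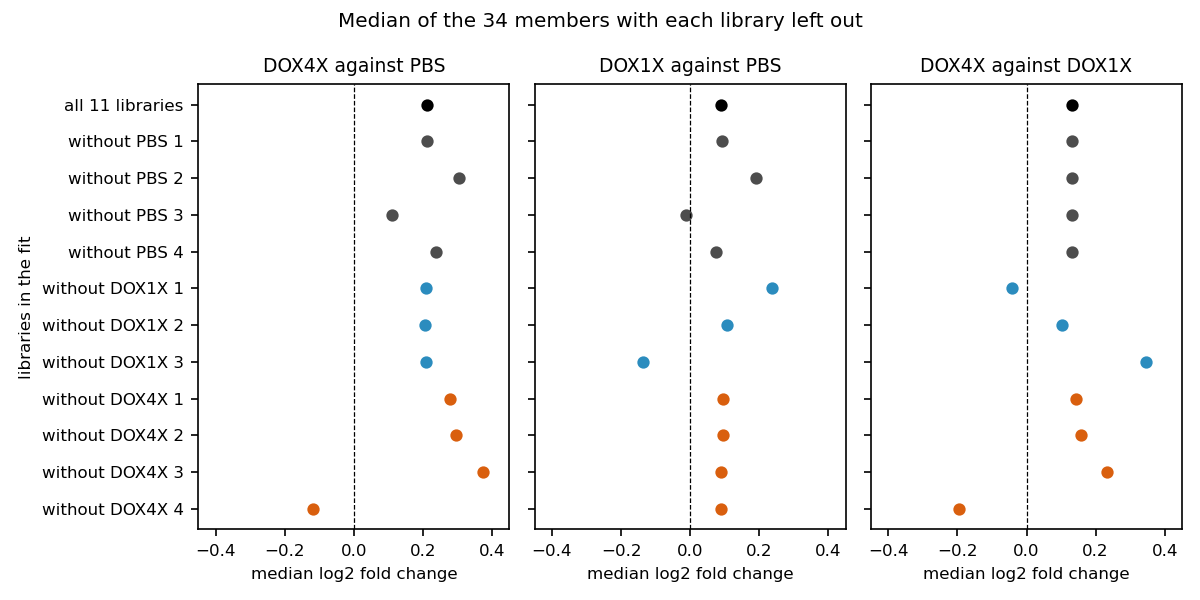
Median log2 fold change of the 34 genes (points, without units) in each comparison with all libraries and with each library left out in turn. The DOX4X against PBS median was 0.21 with all libraries, between -0.12 without DOX4X 4 and 0.37 without DOX4X 3.

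The mice spread more in these genes than in most genes. For the 29 genes with a mean of at least 10 CPM, the median coefficient of variation over the 11 libraries was 29.1%, beside 11.03% over 9615 genes of at least 10 CPM. Within groups the median SD on the log2 scale was 0.27 in PBS, 0.36 in DOX1X and 0.56 in DOX4X, beside 0.15, 0.14 and 0.13 over all such genes. The highest library was 1.46 to 5.95 times the lowest for these 29 genes, with a median of 2.47, while for 29 of the 34 genes the 3 group means lay within 1.5-fold of each other. Against the mean of DOX4X 1 to 3, DOX4X 4 was 3.14 times as high in Irf7, 3.13 times in Ifit3, 2.58 times in Ifit1, 2.44 times in Bst2 and 2.36 times in Isg15. The smallest ratios were 1.01 for Isg20, 1.12 for Oas3, 1.171 for Trim25, 1.32 for Ddx58 and 1.34 for Ifi35. The 2 genes with an unadjusted p under 0.05 in DOX4X against PBS were among those for which DOX4X 4 stood least above its group. A library far above its group widens the spread and raises p, so this link is partly built into the test.

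The other genes of the pathway were taken from lists of ligands, receptors and kinases, sensing, negative regulation and other interferon-induced genes. None of their members passed the test in any comparison. Of the 14 listed ligands 1 was analysed here, type II interferon Ifng, at 0 to 0.394 CPM. No level of a type I interferon gene is therefore given. The receptors and kinases held 10 tested genes, of which 3 had a log2 fold change above 0 and 7 below 0 in DOX4X against PBS, with a median of -0.11 (all genes 0.01). At an unadjusted p under 0.05, 5 of the 10 were lower, again beside 7.85% of all genes. Ifnar1 was at 148, 140.4, 143 and 128 CPM in PBS, 129.6, 126 and 114 CPM in DOX1X, and 109, 130.3, 122 and 129 CPM in DOX4X. Its log2 fold change in DOX4X against PBS was -0.19 (SE 0.08, edgeR adjusted p = 0.31). Jak1 was at 595, 612, 629 and 529 CPM in PBS, 424, 427 and 489 CPM in DOX1X, and 444, 536, 460.0 and 531 CPM in DOX4X. All 3 DOX1X mice were below all 4 PBS mice for Jak1, by -0.40 on the log2 scale (SE 0.10), which did not pass (edgeR adjusted p = 0.52). In DOX1X 3 of the 10 lay below PBS in this way, beside 3.82% of all genes. In DOX4X against PBS 3 of the 10 lay below PBS without overlap, beside 4.68% of all genes. These were Ifngr2 at -0.28 (SE 0.08, edgeR adjusted p = 0.18), Stat3 at -0.36 (SE 0.11, adjusted p = 0.19) and Il10rb at -0.15 (SE 0.06, adjusted p = 0.29), the last named after its values were seen. Ifnar2 and Tyk2 differed by -0.06 and 0.06. None of these passed, and 2 of the 10 were highest in DOX4X 4.

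The 15 genes of sensing upstream of interferon had a median of -0.01, with Cgas, the cytosolic DNA sensor, at 0.38 and its adaptor Sting1 at -0.05. Irf5, a factor of inflammatory myeloid and B cells, was at 0.84 (edgeR adjusted p = 0.30). The 8 negative regulators also had a median of -0.01. Among them Socs3, which blocks signalling by cytokine receptors of the gp130 type, was at 504, 508, 687 and 754 CPM in PBS, 775, 625 and 573 CPM in DOX1X, and 350.2, 471, 407 and 459 CPM in DOX4X. All 4 DOX4X mice were below all 7 others, by -0.54 on the log2 scale against PBS (SE 0.15, adjusted p = 0.18 by edgeR) and -0.64 against DOX1X (SE 0.17, adjusted p = 0.89). Socs3 was the 1 gene of the 8 below without overlap in these comparisons, beside 4.68% and 2.79% of all genes. Socs1, the main brake on this pathway, differed by 0.03. Of 51 further interferon-induced genes, 38 were above 0 in DOX4X against PBS with a median of 0.11, and 36 were highest in DOX4X 4. Over all genes these shares were 52.2% above 0 and 5.76% highest in that library. At an unadjusted p under 0.05, 3 of the 51 were higher, a share near the 6% of all genes. Ifi209 was at 0.88 (edgeR adjusted p = 0.28), and Epsti1 at 0.63 (adjusted p = 0.33). Epsti1 was the 1 gene of the 51 with all DOX4X mice above all PBS mice, beside 3.17% of all genes.

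Marker lists of other cells differed between the groups in mean level, with PBS and DOX4X ranges that overlapped. None of the markers in these lists passed the edgeR test. A blood-cell marker score (mean log2 CPM relative to all libraries) was -0.50 ± 0.42 in PBS, 0.36 ± 0.58 in DOX1X and 0.23 ± 0.49 in DOX4X (SD), and it was -0.06 in DOX4X 4 and -0.30 in DOX1X 3, within the range of the other libraries. The summed level of 22 endothelial markers was 262 to 977 CPM in PBS, 342 to 620 CPM in DOX1X and 851 to 1518 CPM in DOX4X. It was 979 CPM in DOX4X 4. In DOX4X against PBS 22 of 22 were above 0, beside 52.2% of all genes. In DOX1X against PBS 2 were above 0 and 20 below 0, beside 51.2% of all genes above 0. Plasmacytoid dendritic cells are a main source of type I interferon. Their 10 markers summed to 69.8 to 126 CPM in PBS, 80.6 to 139 CPM in DOX1X and 114 to 220 CPM in DOX4X. Irf8, which other blood cells also express, made up 49.2 to 112 CPM of that sum. Of the 10 markers 7 were above 0 and 3 below 0 in DOX4X against PBS, and none passed the edgeR test. Spib, also a B lineage marker, was at 1.12 (SE 0.40) and Ly6d at 1.31 (SE 0.36), while Pacsin1 was at -1.38 (SE 0.67). Siglech, a defining gene of these cells, was at 1.61 CPM in DOX4X 4 and 1.498 CPM in DOX1X 3, within a range of 0.634 to 15.2 CPM. Neither DOX4X 4 nor DOX1X 3 was the highest library in any of these 3 marker lists. Whether other cells had a part in the high interferon response genes of these 2 libraries was not tested. The share of mitochondrial counts was 0.481% in DOX4X 4, within the 0.418 to 0.803% of all libraries. What part these cells have in the differences between groups was not tested beyond a fit with the blood-cell score as a term, which called 0 of 34 genes and gave a DOX4X median of 0.44.

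**Figure D5:**
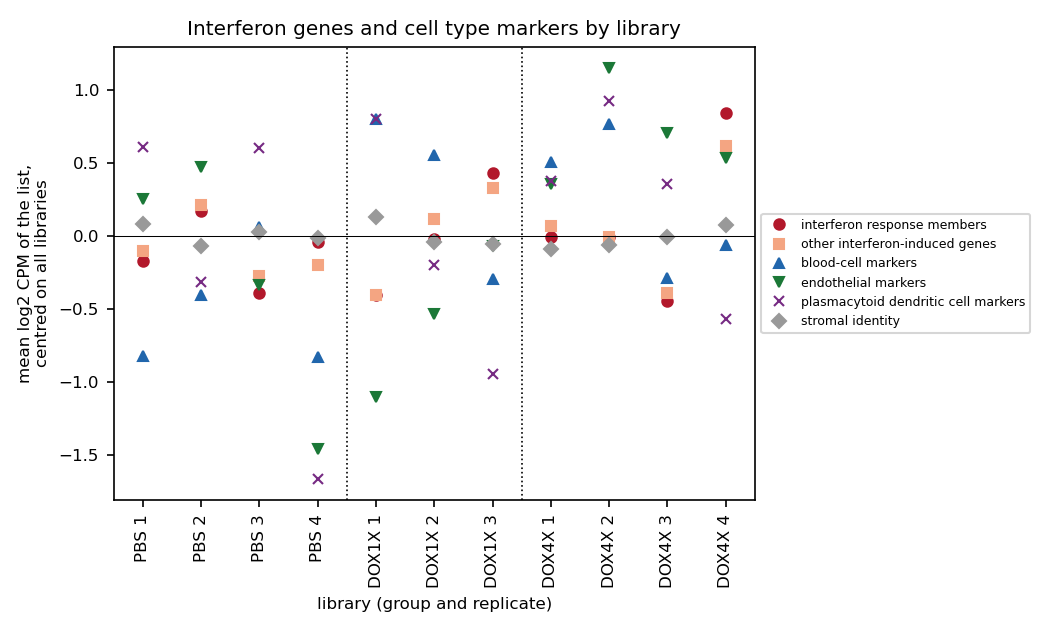
Scores (mean log2 CPM relative to all libraries) of the 34 genes, of the other interferon-induced genes and of blood-cell, endothelial, plasmacytoid dendritic cell and stromal markers, for each library by group. DOX4X 4 is at 0.85 for the 34 genes and at -0.06 for the blood-cell markers.

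The flow cell was nearly the same as the groups, so that it and the treatment cannot be told apart for DOX4X against PBS. With the flow cell as a term, which rests on DOX1X 3 as the treated mouse that links both, the DOX4X against PBS median was -0.32 with 5 of 34 genes above 0. Among mice on the first flow cell the DOX1X against PBS median was -0.14 with 10 of 34 above 0, and on the second the DOX4X median against the single library DOX1X 3 was -0.24 with 5 of 34 above 0. None of the 34 genes passed in the first of these fits or within the first flow cell, and the comparison with DOX1X 3 alone has 1 library in that arm, so its lack of calls says nothing.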

How the data were processed

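Bulk RNA-seq was made from sorted tdTomato-positive marrow cells in 11 libraries, each labelled as a biological replicate (PBS n = 4, DOX1X n = 3, DOX4X n = 4). The authors deposited raw read counts per gene. The submitters' processing notes name STAR 2.7.9a and featureCounts 2.0.1 with GRCm39, besides SAMtools 1.17, Trim Galore 0.6.6, FastQC 0.11.5 and MultiQC 1.7. Which gene annotation was used, and how strand and reads with several matches were handled, is not given in the sources used here. Libraries were made with SMART-Seq v4 Plus, per the labels' protocols, which does not mark strand.

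Totals were 29540422 to 42784036 counts per library, and library size limits precision most for the 5 genes under a mean of 10 CPM. In R 4.3.3, edgeR 4.0.16 was run with its expression filter, TMM scaling and quasi-likelihood F-tests on all 11 libraries, with p-values adjusted by Benjamini-Hochberg over 17838 genes and a threshold of 0.05. P-values measure the spread between the libraries. CPM are TMM-scaled, and scores use log2 CPM with a prior count of 2. Exon lengths came from GENCODE M21 (GRCm38) for all 34 members. No pair of libraries in a group was a duplicate. The test was also run on simulated counts in which each gene varied on its own, which does not cover genes that move together as these do.

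Alternatives were RLE and upper-quartile scaling, no filter, a filter of 5 CPM in 3 libraries, DESeq2 1.42.0, limma-voom (limma 3.58.1) with quality weights, the 2 compared groups alone, a replicate block, a blood-cell marker term, a flow cell term, 1 flow cell alone, and leaving out each library.

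The members and lists were chosen with earlier results of these data known. Values in every library are given for genes past the threshold, for the 4 members with the smallest p in each comparison and for 13 members fixed by name. Of the other lists, the genes with the 2 smallest p in a comparison and fixed names were eligible to be named. Of the fixed names, 1 gene is not reported here.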

Additional observations from a re-analysis of the deposited data

Results flagged for a closer look

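In groups of 4, a library was marked when its gap to the nearest other exceeded 0.829 of the group's range (Dixon's 95% value). Of 70 such tests on the 34 genes and their score, 8 were marked, and chance marks about 1 in 20. All 8 were single genes, and the score was not marked in PBS or in DOX4X. DOX4X 4 stood above its group for Dhx58 at 28.4 CPM (next 15.5), Ifit1 at 155 CPM (next 64.5), Ifit3 at 131 CPM (next 45.2), Ifit3b at 27.6 CPM (next 11.6), Bst2 at 384 CPM (next 166) and Isg15 at 70.9 CPM (next 31.3). PBS 1 stood below its group for Mx2 at 2.84 CPM and Bst2 at 183 CPM. The 34 genes are not independent of each other, and the DOX1X group of 3 was too small for this rule.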

How the results depend on the processing

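No fit and no left-out library brought any of the 34 genes past the threshold in any comparison (within the second flow cell the DOX1X arm is 1 library, which says nothing), so the sign changes given here are all of differences that did not pass. Values are log2 fold changes in DOX4X against PBS unless another comparison is named. With the flow cell as a term the median of the 34 genes was -0.32, and the values were -0.15 for Rsad2, -0.57 for Stat2, -0.79 for Irf7, -0.74 for Isg15, -0.30 for Ifit1, -0.39 for Ifit3, -0.63 for Ifit3b, -0.46 for Usp18 and -0.29 for Oas1a. Oas2 in DOX4X against DOX1X was -0.046 with that term and -0.047 within the second flow cell. With the blood-cell term Irf9 was 0.12, Bst2 0.21 and Ddx58 0.088. With limma-voom Ddx58 was 0.010. DOX1X is the only group on both flow cells, so the flow cell term is set by DOX1X 3 against DOX1X 1 and 2. Values with that term therefore carry the level of that 1 library. DOX1X 3 was 1.53 times the mean of DOX1X 1 and 2 for Stat2, 2.16 times for Irf7 and 1.90 times for Isg15. The cause of the other changes was not tested. Over all genes DOX4X against PBS gave 26 calls, 590 with DESeq2, 56 with limma-voom, 10 with the replicate block, 6 with the flow cell term, 5 with the blood-cell term, 1 with the 2 groups alone and 0 to 80 with a library left out.

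Leaving out each library in turn gave -0.25 to 0.18 for Stat2, -0.29 to 0.56 for Irf7, -0.23 to 0.34 for Isg15, -0.27 to 0.37 for Ifit1, -0.22 to 0.58 for Ifit3, -0.30 to 0.39 for Ifit3b, -0.11 to 0.41 for Usp18, -0.23 to 0.079 for Irf9 and -0.17 to 0.058 for Ddx58. The lowest value of each came without DOX4X 4. The median of the 34 genes ran from -0.12 to 0.37 in DOX4X against PBS, from -0.14 (without DOX1X 3) to 0.24 (without DOX1X 1) in DOX1X against PBS, and from -0.20 (without DOX4X 4) to 0.35 (without DOX1X 3) in DOX4X against DOX1X.

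With the replicate number as a block, 0 of 34 genes passed, Stat2 was -0.018, and the medians of the 34 genes were 0.12, 0.22 and -0.07 in DOX4X against PBS, DOX1X against PBS and DOX4X against DOX1X. Of 10 same-numbered pairs 2 had deviations correlated above 0.1 (range -0.12 to 0.35), and 2 of 11 libraries correlated best with their own number. With so few libraries these values do not show a pairing by number and cannot exclude one. Among the 5 genes with few reads, Oas2, Mx1, Oas3 and Ifi27l2a had the 4 largest standard errors of the 34 in DOX4X against PBS.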
